A study of Mus musculus with 16 samples.

Results

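The collagen genes were described across mouse pluripotent stem cells grown in 4 culture conditions. Members were the rows of the deposited count table whose symbol is Col, a type number, the letter a and a chain number. The rule found 44 genes of 34042 rows. They fell into 11 genes for fibrillar collagens, 6 for the type IV collagens of basement membranes and 27 for other collagens. One further symbol of the kind, Col4a3bp, encodes a lipid transfer protein and was outside the rule.

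Bulk RNA sequencing gave 16 libraries in 4 groups. Formative stem cells (FS), which model an epiblast state between the naive and the primed one, were grown in A3XR medium and gave 6 libraries, 3 of line 5ar1 (p10, p12 and p14) and 3 of line 5ar3 (p4, p5 and p12). Epiblast stem cells (EpiSC), a primed culture, gave 3 libraries of line AF32 in AF medium (p13, p14 and p15) and 3 of line AFX6 in AFX medium (p5, p8 and p12). Embryonic stem cells (ES) gave 4 libraries of line E14IV-C in 2iL medium (p12, p13, p15 and p20), a naive culture. The labels name no genotype, mutation or transgene, and spell out neither the p numbers nor the contents of the media. Outside FS each condition was 1 line, so line and medium cannot be told apart there, and nothing says that the libraries of a line came from separate cultures, so p-values measure only the spread between these libraries, which may be technical.

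Collagens are extracellular proteins made of 3 chains wound into a triple helix. Fibrillar collagens such as types I, II, III, V and XI pack into the fibrils of connective tissue, while type IV chains join into the sheet-like network of the basement membrane on which the epiblast rests in the embryo. The remaining types decorate fibrils (the FACIT collagens), form other networks (types VI and VIII), anchor basement membranes (type VII), are proteoglycans of basement membrane zones (the multiplexins, types XV and XVIII) or span the cell membrane. Each chain has its own gene, and most types need chains from more than 1 gene.

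Levels are given as CPM, counts scaled to a common library total with TMM factors. Values after ± are SDs over libraries for levels (n = 6 for FS, 3 for each EpiSC group, 4 for ES and 3 for each FS line) and SEs for log2 fold changes. Total counts ran from 22069338 to 33290250 per library. The mitochondrial rRNA gene mt-Rnr2 took 9.96% to 25.02% of the counts in 15 libraries and 38.14% in the E14IV-C p12 library. The label of ES held against defining genes. Zfp42, a naive marker, was at 329 ± 57.5 CPM in ES and at most 5 counts in any other library. Fgf5, a marker of the post-implantation epiblast, was at 0.182 ± 0.0933 CPM in ES and at 66.9 ± 34.1 CPM in FS. The FS and EpiSC labels were not checked in this way. Of 9 pluripotency markers, none was called between FS and EpiSC_AFX or between the EpiSC groups. Against EpiSC_AF, 1 was called higher and 1 lower in FS.  Summed markers of primitive and parietal endoderm (10 genes) reached 72.7, 193 and 106 CPM in EpiSC_AF and 47.7 CPM in the AFX6 p12 library. The other AFX6 libraries had 6.68 and 6.64 CPM, FS 3.79 to 20.1 CPM and ES 3.52 to 4.85 CPM. All 7 of these markers tested were called higher in EpiSC_AF than in ES, beside 29.7% of all genes. Among those with at least 10 CPM in EpiSC_AF, Foxa2, Sox17 and Gata6 had the largest fold changes. The sum does not show which cell type expressed these genes. Fibroblast and mesenchyme markers (10 genes) summed to 15 to 33.6 CPM in FS, 20.2 to 20.8 CPM in EpiSC_AFX, 22.7 to 26.2 CPM in EpiSC_AF and 5.06 to 5.33 CPM in ES. Endothelial markers (5 of 6 genes in the table) had their highest sum in ES, at 8.78 to 24 CPM against 0.813 to 5.71 CPM elsewhere. Cdh5, Tie1 and Erg each had at most 3 counts in every ES library, so this sum came from the remaining genes, among them Tek. In bulk libraries, fewer cells of a type and less RNA per cell cannot be told apart.

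Collagen RNA was scarce in ES and several times more abundant in the 3 other conditions. All members together summed to 71.1 ± 7.08 CPM in ES, 270 ± 3.56 CPM in EpiSC_AFX, 376 ± 39.7 CPM in EpiSC_AF and 385 ± 53.6 CPM in FS. The ES libraries, at 66.8 to 81.6 CPM, lay below every other library, of which the lowest had 266 CPM. The 3 classes differed most in type IV. It summed to 2.59 ± 1 CPM in ES and to 86.1 ± 21 CPM in FS, 63.8 ± 18.1 CPM in EpiSC_AFX and 135 ± 34.7 CPM in EpiSC_AF. Fibrillar genes summed to 14.9 ± 2.45 CPM in ES, 65.4 ± 21.4 CPM in FS, 41.8 ± 7.9 CPM in EpiSC_AFX and 104 ± 22.8 CPM in EpiSC_AF. The other collagens were highest in FS, with 234 ± 28.5 CPM in FS, 164 ± 23.3 CPM in EpiSC_AFX, 136 ± 14.3 CPM in EpiSC_AF and 53.6 ± 4.62 CPM in ES. Most of this class sum was 1 gene. Col18a1 alone gave 181 ± 26 CPM in FS, 121 ± 28.9 CPM in EpiSC_AFX, 78.5 ± 6.13 CPM in EpiSC_AF and 40.1 ± 5.62 CPM in ES.

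**Figure D1:**
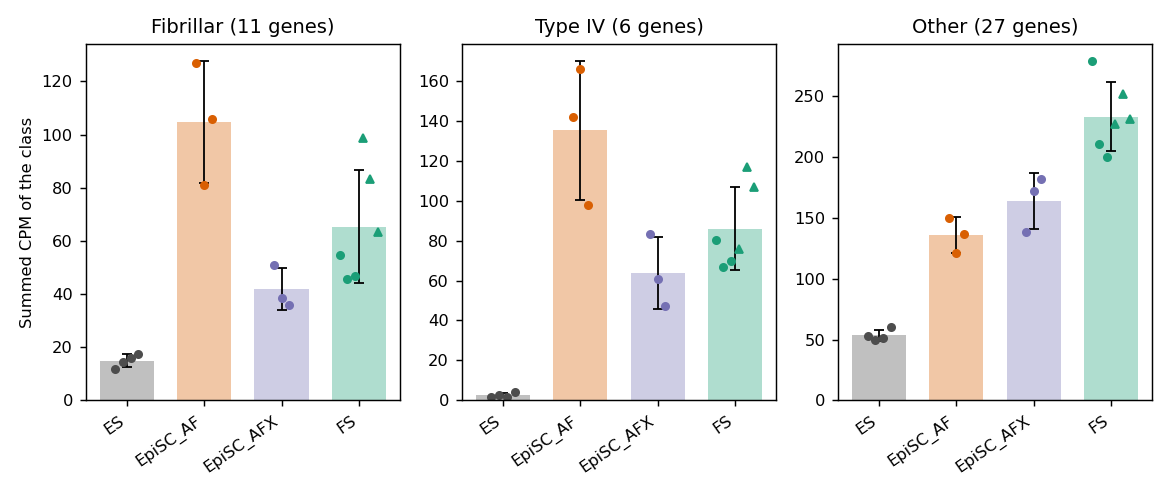
Summed CPM (y axis, linear) of the 11 fibrillar, 6 type IV and 27 other collagen genes in the 4 culture conditions. Bars are means, error bars SD and points single libraries (triangles, FS line 5ar3): EpiSC_AF stands highest for fibrillar and type IV genes (104 and 135 CPM), FS for the other collagens (234 CPM), and ES lowest in each panel. Col18a1 alone gave a mean of 181 CPM of the other collagens in FS.

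On a scale per kilobase of the longest coding transcript, which allows levels of different genes to be compared, type IV genes made up 2.96% ± 0.926 of collagen RNA in ES, against 19.8% ± 2.99 in FS, 21.9% ± 5.96 in EpiSC_AFX and 33.5% ± 7.68 in EpiSC_AF. The ranges of FS (16.8% to 23.8%) and EpiSC_AFX (16.4% to 28.2%) overlapped, while ES lay apart at 2.19% to 4.19%. Fibrillar genes took a like share in ES (15.6% ± 2.38), FS (14.8% ± 4.14) and EpiSC_AFX (13.9% ± 3.48), and 27.5% ± 4.82 in EpiSC_AF.

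Each gene was then compared between conditions with edgeR's quasi-likelihood test over all 18555 genes with enough counts. The threshold for a call was 0.05 on the p-value after Benjamini-Hochberg adjustment. Of the 44 collagen genes, 36 passed the count filter: all 11 fibrillar genes, 4 of 6 type IV genes and 21 of 27 others. The 8 left out were Col4a3, Col4a4, Col10a1, Col15a1, Col19a1, Col28a1, Col6a4 and Col6a6. They held between 1 count (Col10a1) and 75 counts (Col6a4) over all 16 libraries together.

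Against ES, 25 collagen genes were called higher and 3 lower in FS, where 32.9% of all genes tested were called higher and 29.9% lower. In EpiSC_AF 23 were called higher and 3 lower, with 29.7% and 27% of all genes. In EpiSC_AFX 23 were called higher and 6 lower, with 28.5% and 26.2% of all genes. The median log2 fold change of the members tested was 3.24 in FS, 3.51 in EpiSC_AF and 2.83 in EpiSC_AFX, against 0.04, 0.01 and 0.01 over all genes. With genes whose ES libraries all held at most 3 counts set at their lower bound, those medians were 2.72, 2.88 and 2.58. The 3 comparisons share the 4 ES libraries, and 22 collagen genes were called higher and 1 lower (Col20a1) in each of them. Col14a1 and Col6a3 were called in none. No collagen gene was called in opposite directions. The shares of all genes called jointly in these comparisons were not taken.

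**Figure D2:**
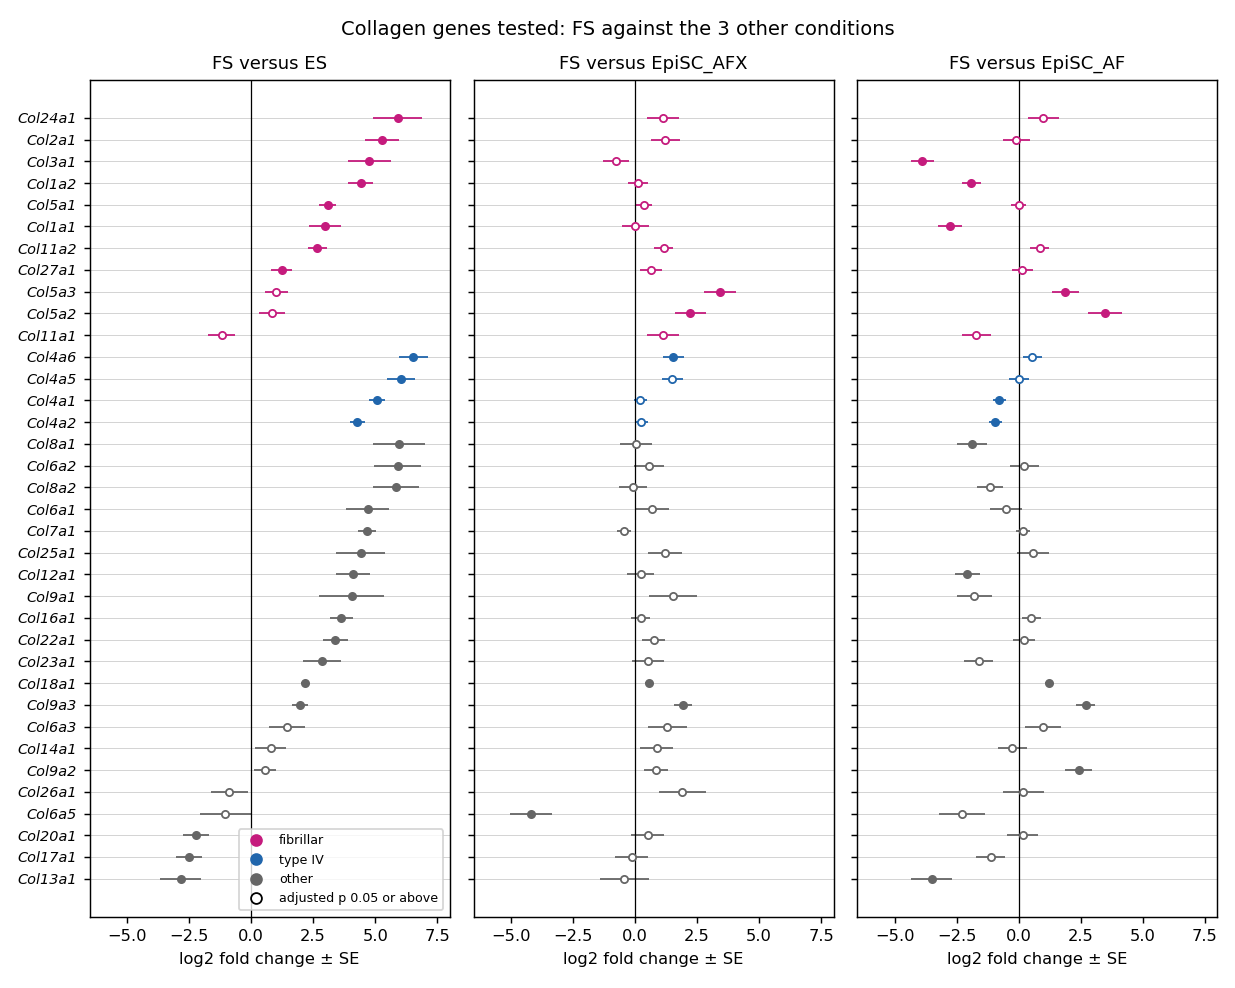
Log2 fold change ± SE (x axis) of the 36 collagen genes tested, for FS against ES, EpiSC_AFX and EpiSC_AF, ordered within class by the first comparison. Filled points have an adjusted p under 0.05: 28 against ES, 6 against EpiSC_AFX and 13 against EpiSC_AF.

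The type IV chains stood out among the classes by size. Col4a1 and Col4a2 encode the chains of the common type IV network and lie head to head on chromosome 8 in GRCm38 (chr8:11198423-11312826, minus strand, and chr8:11312805-11449287, plus strand), with annotated starts that overlap by 22 bases. Col4a1 was at 41.7, 45.5 and 58.4 CPM (lowest, median and highest) in FS, at 51.6, 41.2 and 31.3 CPM in the AFX6 libraries p12, p5 and p8, at 83.8, 108 and 54.8 CPM in the AF32 libraries p13, p14 and p15, and at 1.04, 1.13, 0.82 and 2.59 CPM in the ES libraries p12, p13, p15 and p20. Every ES library lay more than an order of magnitude below every other library, FS and EpiSC_AFX overlapped, and EpiSC_AF overlapped with FS at its lowest library. The log2 fold change of Col4a1 against ES was 5.07 ± 0.31 in FS (adjusted p = 3.29e-10), 5.85 ± 0.33 in EpiSC_AF and 4.86 ± 0.32 in EpiSC_AFX.

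Col4a2 was at 13.9, 17.2 and 26.2 CPM in FS (lowest, median, highest), at 21.5, 13.9 and 11.5 CPM in AFX6 (p12, p5, p8), at 39.8, 43.3 and 25 CPM in AF32 (p13, p14, p15) and at 0.76, 1.13, 0.683 and 1.23 CPM in ES (p12, p13, p15, p20). It had the same order as Col4a1, with ES apart and the highest values in 2 of the AF32 libraries. Its log2 fold change against ES was 4.28 ± 0.30 in FS (adjusted p = 2.02e-09), 5.22 ± 0.33 in EpiSC_AF and 4.01 ± 0.32 in EpiSC_AFX. Among AF32 and among AFX6 libraries, the library with the highest summed endoderm markers (AF32 p14 and AFX6 p12) also had the highest Col4a1 and Col4a2. None of the 10 endoderm genes was at 0 throughout EpiSC_AF, EpiSC_AFX or FS, and only Afp was so throughout ES. Any part of cells expressing these genes in the type IV values was not tested.

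Col4a5 and Col4a6 encode chains of a second type IV network and lie head to head on the X chromosome. Col4a5 was at 6.25, 9.34 and 21.2 CPM in FS (lowest, median, highest), at 6.91, 3.89 and 2.1 CPM in AFX6 (p12, p5, p8), at 12.9, 10.6 and 13 CPM in AF32 (p13, p14, p15) and at 0.138, 0.226, 0.273 and 0.085 CPM in ES (p12, p13, p15, p20). ES lay apart from all others, and AFX6 overlapped with FS. The log2 fold change of Col4a5 against ES was 6.03 ± 0.57 in FS (adjusted p = 7.34e-08), 6.02 ± 0.59 in EpiSC_AF and 4.52 ± 0.60 in EpiSC_AFX. Col4a6 was at 7.15 ± 3.34 CPM in FS, 4.86 ± 0.448 CPM in EpiSC_AF and 2.44 ± 0.514 CPM in EpiSC_AFX, and at 0 to 3 counts in each ES library. With 3 counts per library taken as the limit in ES, Col4a6 was at least 47.1-fold higher in FS, 32.1-fold in EpiSC_AF and 16-fold in EpiSC_AFX. Col4a3 and Col4a4, whose chains join Col4a5 in the network of the kidney filter, gave 5 and 3 counts over all libraries.

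The multiplexin gene Col18a1 (chr10:77052178-77166548, minus strand), which encodes the core protein that releases endostatin, had the highest mean level per kilobase of all collagen genes in every condition. In EpiSC_AF this lead over Col4a1 lay within the spread of the libraries (14 ± 1.1 against 12.4 ± 4 CPM per kb). It was at 161, 172 and 231 CPM in FS (lowest, median, highest), at 89.1, 130 and 145 CPM in AFX6 (p12, p5, p8), at 83.6, 71.7 and 80.3 CPM in AF32 (p13, p14, p15) and at 34.8, 40.2, 37.7 and 47.9 CPM in ES (p12, p13, p15, p20). The 4 groups did not overlap and stood in the order ES, EpiSC_AF, EpiSC_AFX, FS. Its log2 fold change against ES was 2.17 ± 0.16 in FS (adjusted p = 2.16e-09), 1.59 ± 0.17 in EpiSC_AFX and 0.97 ± 0.17 in EpiSC_AF. Per kilobase, Col18a1 supplied 54.3% ± 6.15 of collagen RNA in ES, 49.6% ± 6.45 in FS and 49% ± 12.2 in EpiSC_AFX, and 23% ± 2.43 in EpiSC_AF. Col4a1 was second in FS, EpiSC_AFX and EpiSC_AF, while in ES Col9a3 was second, with a wide spread (0.975 ± 0.629 CPM per kb against 7.17 ± 1 for Col18a1).

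**Figure D3:**
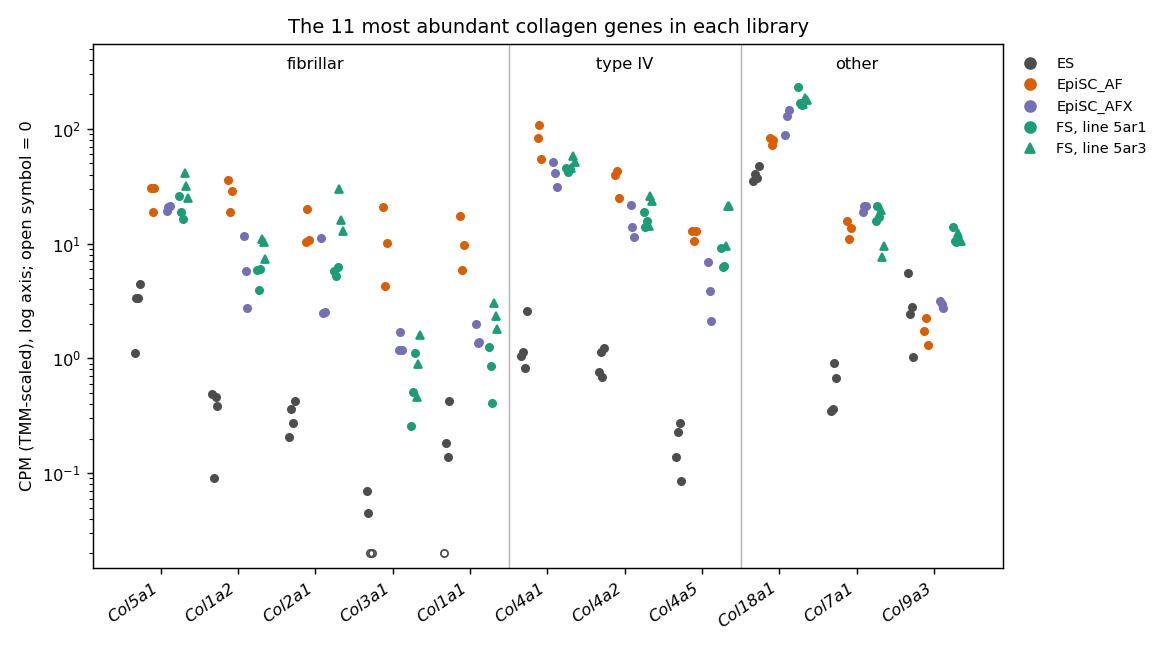
CPM (log axis) of the 11 collagen genes with a mean of at least 10 CPM in a condition, 1 point per library, grouped as fibrillar, type IV and other. ES (grey) lies lowest for most genes. EpiSC_AF (orange) lies highest for Col1a1, Col1a2 and Col3a1, and FS (green) for Col18a1 and Col9a3.

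Among the fibrillar genes, 8 of 11 were called higher in FS than in ES and none lower, beside 32.9% and 29.9% of all genes. edgeR gave 10 an unadjusted p under 0.05, a level at which no share of all genes was taken. The 3 not called were Col5a2, Col5a3 and Col11a1. In EpiSC_AF 7 were called higher and 1 lower (Col5a2), beside 29.7% and 27% of all genes. In EpiSC_AFX 7 were called higher and 2 lower (Col11a1 and Col5a3), beside 28.5% and 26.2%.

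Col5a1, the main chain of type V collagen, which starts fibril assembly, was the fibrillar gene with the highest level per kilobase in FS and EpiSC_AFX. It was at 16.3, 25.4 and 41.1 CPM in FS (lowest, median, highest), at 19.3, 20.7 and 21.3 CPM in AFX6 (p12, p5, p8), at 30.5, 18.9 and 30.6 CPM in AF32 (p13, p14, p15) and at 1.11, 3.39, 3.33 and 4.46 CPM in ES (p12, p13, p15, p20). The 3 conditions other than ES overlapped with each other and not with ES. The log2 fold change of Col5a1 against ES was 3.08 ± 0.33 in FS (adjusted p = 3.08e-07), 3.09 ± 0.35 in EpiSC_AF and 2.71 ± 0.35 in EpiSC_AFX.

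Col2a1, the collagen of cartilage and notochord sheath, was at 5.26, 9.54 and 30.2 CPM in FS (lowest, median, highest), at 11.3, 2.5 and 2.54 CPM in AFX6 (p12, p5, p8), at 10.3, 19.9 and 10.8 CPM in AF32 (p13, p14, p15) and at 0.207, 0.361, 0.273 and 0.425 CPM in ES (p12, p13, p15, p20). Summed notochord and cartilage markers (7 genes, no collagens) were at 6.27, 2.89 and 1.56 CPM in AFX6, at 16.1, 24.9 and 8.53 CPM in AF32 (same order of libraries) and at 2.21 to 5.33 CPM in ES. In AFX6 and in AF32 the library with the most Col2a1 also had the highest sum of these markers and of endoderm markers, and their part in the result was not tested. Its log2 fold change against ES was 5.27 ± 0.70 in FS (adjusted p = 4.77e-06), 5.37 ± 0.74 in EpiSC_AF and 4.04 ± 0.73 in EpiSC_AFX.

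Col1a1 and Col1a2, the chains of type I collagen, and Col3a1, which forms type III collagen, are the fibrillar genes typical of fibroblasts. Col1a2 was at 3.95, 6.71 and 11 CPM in FS (lowest, median, highest), at 11.7, 5.75 and 2.75 CPM in AFX6 (p12, p5, p8), at 35.7, 19 and 28.7 CPM in AF32 (p13, p14, p15) and at 0.484, 0.0903, 0.456 and 0.383 CPM in ES (p12, p13, p15, p20). Col1a1 was lower, at 0.406, 1.53 and 3.01 CPM in FS, 1.99, 1.36 and 1.39 CPM in AFX6, 17.4, 5.88 and 9.66 CPM in AF32 and 0, 0.181, 0.137 and 0.425 CPM in ES. Both had their 3 highest values in the AF32 libraries, with AF32 p13 on top. For Col1a1 the lowest FS library lay just under the highest ES library, while Col1a2 in ES lay apart.

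Col3a1 was at 0.259, 0.697 and 1.6 CPM in FS (lowest, median, highest), at 1.18, 1.68 and 1.19 CPM in AFX6 (p12, p5, p8), at 20.9, 4.31 and 10.2 CPM in AF32 (p13, p14, p15) and at 0.0691, 0.0452, 0 and 0 CPM in ES (p12, p13, p15, p20). AF32 again lay apart from all other libraries. Against ES the log2 fold change was 2.97 ± 0.64 for Col1a1 (adjusted p = 0.000606) and 4.41 ± 0.51 for Col1a2 (adjusted p = 8.04e-07) in FS, 2.95 ± 0.69 and 4.27 ± 0.54 in EpiSC_AFX, and 5.74 ± 0.69 and 6.31 ± 0.55 in EpiSC_AF. Col3a1, with at most 1 count in any ES library, was at least 5.3-fold higher in FS, 8.88-fold in EpiSC_AFX and 77.6-fold in EpiSC_AF. Fibroblast and mesenchyme markers moved with these genes in part. Of the 7 such markers tested, none was called lower than ES. In FS 6 were called higher (median log2 fold change 3.68), in EpiSC_AF 7 (5.29) and in EpiSC_AFX 5 (4.36). Of all genes, 32.9%, 29.7% and 28.5% were called higher and 29.9%, 27% and 26.2% lower. Between FS and EpiSC_AF the median of these markers was -1.44. There 3 were called lower in FS (Twist1, Prrx1 and Postn) and 1 higher (Thy1), beside 8.81% and 7.84% of all genes. The summed level hides these opposite directions, since Thy1 was at 13.2 ± 4.13 CPM in FS, 4.3 ± 1.28 CPM in EpiSC_AFX and 1.07 ± 0.283 CPM in EpiSC_AF. Tcf21 and Fap were at 0 in all FS libraries and Fap in all EpiSC_AFX libraries. The part of such cells was not tested.

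The lower fibrillar genes moved apart. Col24a1 was at 1.04 ± 0.818 CPM in FS, 0.515 ± 0.11 CPM in EpiSC_AF and 0.25 to 0.675 CPM in EpiSC_AFX, with at most 1 count in an ES library, so that it was at least 6.83-fold, 3.39-fold and 3.07-fold higher. Col11a2, a chain of type XI collagen, was at 2.73 ± 0.937 CPM in FS, 1.52 ± 0.348 CPM in EpiSC_AF, 1.22 ± 0.472 CPM in EpiSC_AFX and 0.424 ± 0.178 CPM in ES, and was called higher than ES in all 3. Its partner Col11a1 was at 5.31 ± 0.514 CPM in ES, 7.61 ± 1.63 CPM in EpiSC_AF, 2.34 ± 2.58 CPM in FS and 1.07 ± 0.532 CPM in EpiSC_AFX, and was called against ES only as lower in EpiSC_AFX (log2 fold change -2.31 ± 0.71, adjusted p = 0.0112), a call lost without the AFX6 p12 library (adjusted p = 0.051, the highest over all alternatives, of which the lowest was 0.000293). Col27a1 was at 3.53 ± 2.01 CPM in FS, 3.2 ± 0.689 CPM in EpiSC_AF, 2.27 ± 0.278 CPM in EpiSC_AFX and 1.51 ± 0.314 CPM in ES. It was called higher in FS (log2 fold change 1.23 ± 0.41, adjusted p = 0.0141), but not with line 5ar3 alone (0.62, adjusted p = 0.199, the highest of its alternatives, which began at 0.000148).

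Type V collagen showed that chains of 1 protein differed in opposite ways. Col5a2 was at 0.761, 6.66 and 8.15 CPM in FS (lowest, median, highest), at 0.371, 1.11 and 2.2 CPM in AFX6 (p12, p5, p8), at 0.289, 0.36 and 0.92 CPM in AF32 (p13, p14, p15) and at 2.28, 3.34, 4.15 and 3.1 CPM in ES (p12, p13, p15, p20). The lowest FS value was the 5ar3 p12 library, and the other 5 FS libraries, at 4.48 to 8.15 CPM, lay above all other libraries. Against ES, Col5a2 was called lower in EpiSC_AF (log2 fold change -2.63 ± 0.69, adjusted p = 0.00377) and not called in FS (0.84 ± 0.52, adjusted p = 0.169) or EpiSC_AFX (-1.39 ± 0.64, adjusted p = 0.0746). Col5a3, a rarer type V chain that is named here after its values were seen, was at 0.914 ± 0.488 CPM in FS, 0.244 ± 0.0791 CPM in EpiSC_AF, 0.0796 ± 0.0778 CPM in EpiSC_AFX and 0.445 ± 0.102 CPM in ES, and was called against ES only as lower in EpiSC_AFX (-2.41 ± 0.67, adjusted p = 0.00577).

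The stretch just upstream of the annotated start is shown for 3 fibrillar genes that had different patterns over the conditions. They are Col5a1 (high outside ES), Col3a1 (highest in EpiSC_AF) and Col5a3 (highest mean in FS). Col5a3 was under 1 CPM in each group mean. It was not called between FS and ES (edgeR adjusted p = 0.0644), whose libraries overlapped. Sequences are from RefSeq on GRCm38.p6, 250 bases before the start, 5′ to 3′ on the strand of the gene, at chr2:27886175-27886424 (plus strand), chr1:45311288-45311537 (plus strand) and chr9:20815068-20815317 (minus strand). No annotated exon overlaps them. Capitals mark the CCAAT box (letters CCAAT), the TATA box (letters TATAAA) and the GC box (letters GGGCGG), searched on both strands.
Col5a1: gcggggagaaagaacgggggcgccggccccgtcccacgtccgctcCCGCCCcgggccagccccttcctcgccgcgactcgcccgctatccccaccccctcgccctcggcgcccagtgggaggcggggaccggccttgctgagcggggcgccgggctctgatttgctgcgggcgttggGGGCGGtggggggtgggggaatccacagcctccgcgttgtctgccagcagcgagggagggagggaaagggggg
Col3a1: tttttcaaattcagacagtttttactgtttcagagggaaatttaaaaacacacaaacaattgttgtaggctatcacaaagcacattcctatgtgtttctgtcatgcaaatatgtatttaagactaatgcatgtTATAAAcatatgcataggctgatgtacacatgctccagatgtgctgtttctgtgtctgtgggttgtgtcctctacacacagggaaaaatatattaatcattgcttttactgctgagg
Col5a3: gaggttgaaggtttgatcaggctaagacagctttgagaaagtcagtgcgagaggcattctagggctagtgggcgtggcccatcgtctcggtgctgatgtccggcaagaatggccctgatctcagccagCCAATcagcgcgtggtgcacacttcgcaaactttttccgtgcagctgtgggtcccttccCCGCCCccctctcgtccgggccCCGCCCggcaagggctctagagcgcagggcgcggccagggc
The Col5a1 window is 76.4% G and C, that of Col5a3 62.8% and that of Col3a1 35.2%. Col5a1 holds 2 matches to GGGCGG, Col5a3 holds 2 and a CCAAT, and Col3a1 holds neither and 1 match to TATAAA that ends 111 bases before the start. RefSeq promoters were found for 35 of the 44 members, 38 windows in all. GGGCGG was in 57.9% of these windows and in 32.7% of all 32851 RefSeq promoters, CCAAT in 34.2% and 33.8%, and TATAAA in 13.2% and 12.4%. A match is only a match of letters.

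Among the 21 other collagens tested, 13 were called higher and 3 lower in FS than in ES, beside 32.9% and 29.9% of all genes. In EpiSC_AF 12 were called higher and 2 lower, beside 29.7% and 27%, and in EpiSC_AFX 12 higher and 4 lower, beside 28.5% and 26.2%. Col7a1, which forms the anchoring fibrils under epithelia, was at 7.66, 16.5 and 21.3 CPM in FS (lowest, median, highest), at 18.9, 21.2 and 21.2 CPM in AFX6 (p12, p5, p8), at 15.6, 10.9 and 13.6 CPM in AF32 (p13, p14, p15) and at 0.346, 0.361, 0.911 and 0.68 CPM in ES (p12, p13, p15, p20). FS overlapped with both EpiSC groups, and ES lay apart. Its log2 fold change against ES was 4.68 ± 0.36 in FS (adjusted p = 4.99e-09), 5.11 ± 0.38 in EpiSC_AFX and 4.5 ± 0.38 in EpiSC_AF.

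Type IX collagen is a FACIT collagen of 3 chains that sits on type II fibrils, and its genes differed from each other. Col9a3 was at 10.3, 10.6 and 14 CPM in FS (lowest, median, highest), at 3.14, 2.96 and 2.75 CPM in AFX6 (p12, p5, p8), at 1.74, 2.26 and 1.31 CPM in AF32 (p13, p14, p15) and at 5.6, 2.44, 2.82 and 1.02 CPM in ES (p12, p13, p15, p20). All FS libraries lay above all others, among which the ES range covered those of EpiSC_AFX and EpiSC_AF. Col9a3 was called higher in FS than in ES (log2 fold change 1.97 ± 0.33, adjusted p = 5.15e-05), while EpiSC_AFX (0.01 ± 0.37, adjusted p = 0.98) and EpiSC_AF (-0.72 ± 0.38, adjusted p = 0.113) were not called.

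Col9a2 was at 2.05 ± 0.553 CPM in FS, 1.14 ± 0.546 CPM in EpiSC_AFX, 0.378 ± 0.0465 CPM in EpiSC_AF and 1.37 ± 1.11 CPM in ES. It was called lower in EpiSC_AF than in ES (-1.87 ± 0.56, adjusted p = 0.00875), which was lost without the E14IV-C p20 library (adjusted p = 0.0503, the highest of its alternatives, which began at 0.00235). Col9a1 stayed under 1 CPM in every group mean, with its highest mean in EpiSC_AF (0.96 ± 0.669 CPM). It was called higher than ES in EpiSC_AF and in FS, where the call was lost with line 5ar1 alone (adjusted p = 0.195, the highest of alternatives that began at 0.000471). Col14a1 had group means of 0.151 to 0.331 CPM. Of the other FACIT genes, Col22a1 (5.88 ± 3.63 CPM in FS, 5.05 ± 0.506 CPM in EpiSC_AF, 3.46 ± 1.26 CPM in EpiSC_AFX and 0.541 ± 0.2 CPM in ES) and Col16a1 (2.02 ± 0.769, 1.42 ± 0.465, 1.72 ± 0.836 and 0.157 ± 0.08 CPM in the same order) were called higher than ES in all 3 conditions. So was Col12a1, at 8.9 ± 4.74 CPM in EpiSC_AF, 2.12 ± 1.45 CPM in FS, 1.8 ± 0.834 CPM in EpiSC_AFX and 0.108 ± 0.131 CPM in ES. Col20a1 went the other way, with 2.62 ± 0.708 CPM in ES and 0.385 to 0.556 CPM as the other group means (log2 fold change in FS -2.22 ± 0.54, adjusted p = 0.00179).

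Col8a1 and Col8a2, which form a hexagonal network in vessel walls and under the corneal endothelium, each had at most 1 count in an ES library. Col8a1 was at 6.71 ± 3.44 CPM in EpiSC_AF, 1.82 ± 1.68 CPM in FS and 1.77 ± 1.39 CPM in EpiSC_AFX, at least 44.2-fold, 12-fold and 11.7-fold above ES. Col8a2 was at 3.67 ± 2.01, 1.66 ± 0.75 and 1.76 ± 1.77 CPM, at least 24.2-fold, 10.9-fold and 11.6-fold above ES. Col6a1 and Col6a2, chains of the beaded filaments of type VI collagen, were called higher than ES in all 3 conditions, with 3.69 ± 3.08 and 1.8 ± 1.44 CPM in FS, 5.31 ± 1.54 and 1.54 ± 0.748 CPM in EpiSC_AF, 2.27 ± 0.781 and 1.21 ± 0.306 CPM in EpiSC_AFX, and 0.146 ± 0.115 and 0.0346 ± 0.0691 CPM in ES. Col6a3, the third chain of the classical type VI molecule, was not called against ES, with 0.519 ± 0.17 CPM in FS and 0.171 ± 0.283 CPM in ES.

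The transmembrane collagens split. Col23a1 was called higher than ES in all 3 conditions (1.03 ± 0.629 CPM in FS, 3.15 ± 1.55 CPM in EpiSC_AF, 0.707 ± 0.641 CPM in EpiSC_AFX and 0.137 ± 0.0982 CPM in ES). In FS this was lost with line 5ar1 alone (adjusted p = 0.0515, the highest of alternatives that began at 0.000157), and in EpiSC_AFX without AFX6 p12 (0.231) or E14IV-C p20 (0.0636), where the alternatives began at 0.009. Col13a1 was at 1.17 ± 0.553 CPM in ES and 1.86 ± 0.481 CPM in EpiSC_AF, and at 0.165 ± 0.181 CPM in FS and 0.214 ± 0.341 CPM in EpiSC_AFX. It was called lower than ES in FS (log2 fold change -2.84 ± 0.82, adjusted p = 0.00585). In EpiSC_AFX its call (-2.41 ± 0.99, adjusted p = 0.0483) was lost in 13 of 22 alternatives, whose adjusted p ran from 0.0026 to 0.157. Col17a1, a hemidesmosome component, was at 0.613 ± 0.121 CPM in ES, 0.103 ± 0.0539 CPM in FS, 0.113 ± 0.108 CPM in EpiSC_AFX and 0.233 ± 0.085 CPM in EpiSC_AF, and was called lower than ES in FS and EpiSC_AFX. Col26a1 was at 2.25 ± 1.74 CPM in ES, 1.21 ± 1.54 CPM in FS, 1.06 ± 0.542 CPM in EpiSC_AF and 0.322 ± 0.238 CPM in EpiSC_AFX, and was called only as lower in EpiSC_AFX (-2.77 ± 1.01, adjusted p = 0.0278). That call was lost in 4 of 23 alternatives (adjusted p from 0.00519 to 0.103 over all), among them those without AFX6 p5, AFX6 p8 or E14IV-C p12.

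FS and EpiSC_AFX were next compared directly. Of the 36 collagen genes tested, 5 were called higher and 1 lower in FS, with 2.89% and 2.1% of all genes called. An unadjusted edgeR p under 0.05 was found for 9, with no share of all genes taken at that level. The summed collagen level did not overlap (317 to 453 CPM in FS and 266 to 272 CPM in EpiSC_AFX). Col18a1 was the largest single part of these sums, at 161 to 231 CPM in FS and 89.1 to 145 CPM in EpiSC_AFX. The median log2 fold change of the collagen genes tested was 0.61, against 0.04 over all genes. Col9a3 (log2 fold change 1.95 ± 0.36, adjusted p = 0.00413) and Col5a3 (3.43 ± 0.63, adjusted p = 0.00391) were called higher in FS under every alternative run, and neither gene's libraries overlapped. Col18a1 (0.58 ± 0.16, adjusted p = 0.0446), Col4a6 (1.55 ± 0.42, adjusted p = 0.0434) and Col5a2 (2.23 ± 0.62, adjusted p = 0.0481) were called narrowly. Of 25 alternatives each, these calls were lost in 18, 13 and 17, with adjusted p from 0.0129 to 0.22, 0.0016 to 0.205 and 0.00273 to 0.173. Leaving out single libraries ended the Col18a1 call except for 5ar1 p14, E14IV-C p12 and E14IV-C p20, the Col4a6 call except for 5ar1 p12, 5ar1 p14 and E14IV-C p12, p13 and p20, and the Col5a2 call except for 5ar3 p12 and AF32 p15.

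Col6a5 was the 1 gene called lower in FS, and this rested on 1 library. It was at 0, 0.0426 and 0.237 CPM in FS (lowest, median, highest), at 0.337, 3.75 and 0.474 CPM in AFX6 (p12, p5, p8), at 0.836, 0.261 and 0.106 CPM in AF32 and at 0.0452 to 0.319 CPM in ES. AFX6 p5 was the only library above 1 CPM. The log2 fold change was -4.18 ± 0.85 (adjusted p = 0.00813), and -2.29 (adjusted p = 0.204) without AFX6 p5, the highest over all alternatives, of which the lowest was 0.000527. It was also not called with line 5ar1 alone (adjusted p = 0.0711). Without AFX6 p5 the call of Col6a5 in EpiSC_AFX against ES was lost as well (3.14 ± 0.93, adjusted p = 0.00879, became 1.26, adjusted p = 0.272, with alternatives from 0.0039).

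FS and EpiSC_AF differed in more collagen genes and in both directions. In FS 5 genes were called higher and 8 lower, with 7.84% and 8.81% of all genes called, and the median log2 fold change was 0.00 (0.04 over all genes). Lower in FS were the fibroblast-type fibrillar genes Col1a1 (log2 fold change -2.77 ± 0.49, adjusted p = 0.000843), Col1a2 (-1.91 ± 0.38, adjusted p = 0.00202) and Col3a1 (-3.88 ± 0.48, adjusted p = 4.01e-05), and none of the 3 overlapped between the groups. The other genes called lower were Col13a1 (-3.51 ± 0.83), Col12a1 (-2.07 ± 0.49), Col8a1 (-1.89 ± 0.60), Col4a2 (-0.94 ± 0.25) and Col4a1 (-0.78 ± 0.25). Higher in FS were Col18a1 (1.20 ± 0.16, adjusted p = 9.36e-05), Col9a3 (2.69 ± 0.38, adjusted p = 0.000119), Col9a2 (2.42 ± 0.54, adjusted p = 0.00464), Col5a2 (3.46 ± 0.69, adjusted p = 0.00202) and Col5a3 (1.88 ± 0.54, adjusted p = 0.0224).

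The 8 calls of Col1a1, Col1a2, Col3a1, Col13a1, Col18a1, Col9a3, Col9a2 and Col5a2 held under every alternative run. The type IV calls were less firm. Of the 7 endoderm markers tested, 6 had a call of lower and none of higher in FS against EpiSC_AF (median log2 fold change -4.05). This stood beside 8.81% and 7.84% of all genes, and the part of these markers in the type IV calls was not tested. Col4a1 (adjusted p = 0.0391) was not called in 10 of 25 alternatives (0.00981 to 0.259), among them those without 5ar1 p10, p12 or p14, 5ar3 p12, AF32 p13 or p14, or AFX6 p5. Col4a2 (adjusted p = 0.0136) was not called in 3 of 25 (0.00558 to 0.0908), among them those without AF32 p13 or AF32 p14. Col8a1 (adjusted p = 0.0387) was lost in 11 of 25 (0.00124 to 0.24), among them those without any 1 of the 5ar1 libraries, 5ar3 p12, 5ar3 p5, AF32 p13 or AF32 p15. Col5a3 was lost in 4 of 24 (0.00569 to 0.12), among them those without any 1 of the AF32 libraries, and Col12a1 (adjusted p = 0.0075) without AF32 p13 (0.0868, in alternatives from 0.000921). Without AF32 p13 the number of collagen genes called was 8. Both comparisons share the FS libraries, and Col18a1, Col5a2, Col5a3 and Col9a3 were called higher in FS in both, while no gene was called lower in both. Against EpiSC_AFX the calls of Col18a1 and Col5a2 were lost in 18 and 17 of 25 alternatives. No share of all genes called in both was taken.

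Col3a1 and Col5a2 lie next to each other on chromosome 1 (chr1:45311538-45349706, plus strand, and chr1:45374321-45503282, minus strand), tail to tail and 24.6 kb apart. Their values between FS and EpiSC_AF went in opposite directions, with Col3a1 at 0.805 ± 0.499 CPM in FS and 11.8 ± 8.39 CPM in EpiSC_AF, and Col5a2 at 5.76 ± 2.82 and 0.523 ± 0.346 CPM. In ES Col3a1 had at most 1 count per library while Col5a2 was at 3.22 ± 0.768 CPM.

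**Figure D4:**
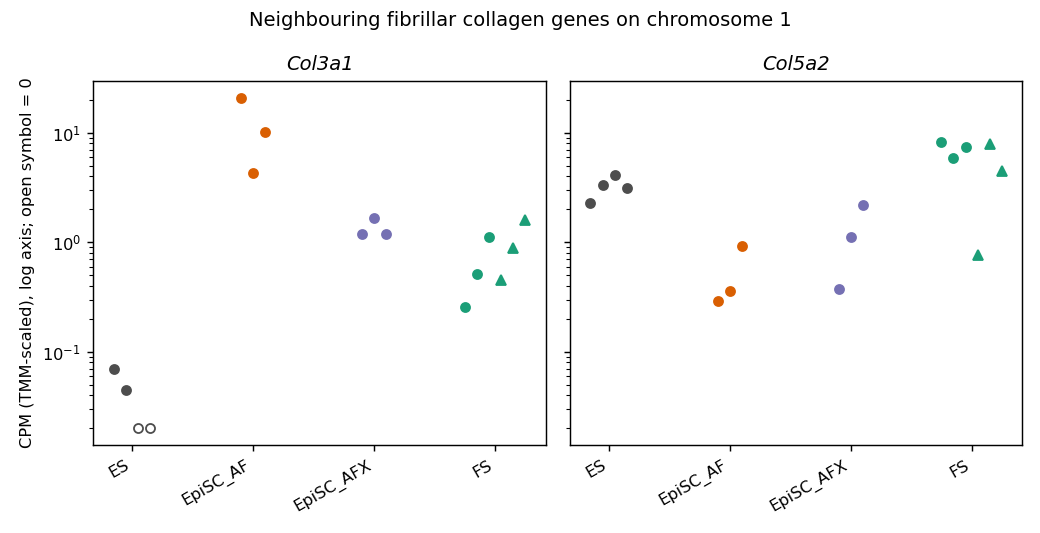
CPM (log axis) of the neighbouring genes Col3a1 and Col5a2 in each library, by culture condition (triangles, FS line 5ar3; open symbols, 0 counts). Col3a1 is highest in EpiSC_AF (4.31 to 20.9 CPM), where Col5a2 is at 0.289 to 0.92 CPM. The FS library with low Col5a2 (0.761 CPM) is 5ar3 p12.

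Between the EpiSC groups, the collagen genes called were 4 of 11 fibrillar, 1 of 4 type IV and 1 of 21 others tested. In EpiSC_AFX no collagen gene was called higher and 6 were called lower than in EpiSC_AF, with 1.43% and 2.83% of all genes called. edgeR gave 16 collagen genes an unadjusted p under 0.05, which were 5 of 11 fibrillar, 4 of 4 type IV and 7 of 21 others. No share of all genes was taken at that level. The genes called were Col3a1 (log2 fold change -3.12 ± 0.60, adjusted p = 0.00574), Col1a1 (-2.79 ± 0.63, adjusted p = 0.0158), Col1a2 (-2.04 ± 0.47, adjusted p = 0.0182), Col4a2 (-1.20 ± 0.30, adjusted p = 0.0267), Col11a1 (-2.83 ± 0.75, adjusted p = 0.0387) and Col12a1 (-2.30 ± 0.62, adjusted p = 0.0429). Of the 3 class medians of the log2 fold change, fibrillar genes had -1.33, type IV genes -1.10 and other collagens -0.64, against 0.00 over all genes. DESeq2 called 11 collagen genes here, with no share of all genes taken for that test. This comparison shares the AF32 libraries with that of FS and EpiSC_AF.

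Of these 6 calls, that of Col3a1 stood in every alternative. Without AF32 p13, AFX6 p5 or AFX6 p8, the number of collagen genes called was 1. Col1a1 was lost without each of these 3 libraries (adjusted p over 23 alternatives 0.000174 to 0.0878), and Col1a2 without these or AF32 p15 (0.000778 to 0.101). Col4a2 was lost without these or AF32 p14 (0.00405 to 0.146). Col11a1 was lost without any 1 EpiSC library or E14IV-C p13 or p15 (0.00162 to 0.166), and Col12a1 without 5ar1 p10, AF32 p13 or p15, any 1 AFX6 library, or E14IV-C p13 or p15 (0.00401 to 0.198). Col4a1 (-0.99 ± 0.30, adjusted p = 0.0706) and Col18a1 (0.63 ± 0.18, adjusted p = 0.0599) did not overlap between the groups and were not called.

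Within FS, where both lines had the same medium, 5 collagen genes were called lower in 5ar1 than in 5ar3 and none higher, with 2.02% and 1.86% of all genes called. Only p12 occurs in both lines, while p4 and p5 occur only in 5ar3, so line and p number cannot be fully told apart. edgeR gave 18 collagen genes an unadjusted p under 0.05, and DESeq2 called 10. No share of all genes was taken for either count. Col6a1 was at 1.67, 0.51 and 0.813 CPM in 5ar1 (p10, p12, p14) and at 5.33, 7.77 and 6.08 CPM in 5ar3 (p12, p4, p5), a log2 fold change of -2.69 ± 0.47 (adjusted p = 0.00355). Col22a1 was at 3.3, 2.93 and 1.93 CPM against 7.57, 10.7 and 8.86 CPM, a log2 fold change of -1.73 ± 0.31 (adjusted p = 0.00408). For both genes the lines did not overlap, and both calls stood in every alternative.

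Col11a1 was at 0.643 (p14), 0.815 (p10) and about 0.83 (p12) CPM in 5ar1 and at 1.07, 7.11 and 3.58 CPM in 5ar3 (log2 fold change -2.36 ± 0.50, adjusted p = 0.013). Col2a1 was at 5.78, 5.26 and 6.26 CPM in 5ar1 and at 30.2, 16.2 and 12.8 CPM in 5ar3 (-1.78 ± 0.48, adjusted p = 0.0481). Col8a1 was at 1.07, 0.414 and 0.508 CPM in 5ar1 and at 2.02, 4.94 and 1.98 CPM in 5ar3 (-2.17 ± 0.58, adjusted p = 0.0461). These 3 genes did not overlap between the lines, but their calls depended on single libraries. Col2a1 was lost in 15 of 22 alternatives (adjusted p from 0.00368 to 0.169), and by leaving out any 1 library other than AF32 p14 and the AFX6 libraries. Col8a1 was lost in 10 of 22 (0.0095 to 0.234), among them those without 5ar1 p12 or p14, 5ar3 p4 or p5, AF32 p15, or E14IV-C p13, p15 or p20. Col11a1 was lost in 4 of 22 (0.000133 to 0.0913), among them those without 5ar1 p12, 5ar1 p14 or 5ar3 p4.

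Other markers also separated the lines. Summed markers of notochord and cartilage were at 4.63, 4.43 and 3.22 CPM in 5ar1 (p10, p12, p14) and at 14.8, 12.7 and 13.6 CPM in 5ar3 (p12, p4, p5). The lines did not overlap, and of the 6 tested Shh and Sox9 were called lower in 5ar1 and none higher (median log2 fold change -2.02). Summed endoderm markers were at 7.38, 5.29 and 3.79 CPM in 5ar1 and at 13.7, 20.1 and 17.1 CPM in 5ar3, also without overlap, with Foxa2 and Pdgfra called lower in 5ar1 (median -1.91 over 7 tested). Fibroblast and mesenchyme markers had Prrx1 called lower and Dcn called higher in 5ar1. Pou5f1, the pluripotency gene that encodes Oct4, was called higher in 5ar1 (log2 fold change 1.12 ± 0.19, adjusted p = 0.00262). The part of these differences in the collagen values was not tested. The class sums of the lines were 49 ± 4.95 and 81.8 ± 17.6 CPM for fibrillar genes, 72.2 ± 6.99 and 100 ± 21.8 CPM for type IV genes and 230 ± 42.7 and 237 ± 13.3 CPM for the other collagens (5ar1 and 5ar3). The fibrillar sums did not overlap between the lines (45.6 to 54.7 against 63.4 to 98.6 CPM), while the others did.

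Since most collagens are assembled from chains of several genes, the ratio between chains was taken per kilobase in each library, as a description with no test. Col4a1 to Col4a2 was 2.58 ± 0.417 in FS, 2.63 ± 0.277 in EpiSC_AFX and 2.2 ± 0.193 in EpiSC_AF. In ES it was 1.38 ± 0.469, from 0.975 to 2.05, while the lowest EpiSC_AF ratio was also 2.05. The ES libraries held only 15 to 61 counts of Col4a1 and 11 to 29 of Col4a2. The ratio was steady outside ES although both genes varied. Col5a1 to Col5a2 varied far more, at 0.737 ± 0.315 in ES, 50.3 ± 29.5 in EpiSC_AF and 21.1 ± 17.5 in EpiSC_AFX. In FS it lay between 1.73 and 42.5, the highest value being that of the 5ar3 p12 library. Col11a1 to Col11a2 was 12 ± 7.29 in ES, 4.22 ± 1.93 in EpiSC_AF, 0.731 ± 0.303 in EpiSC_AFX and 0.726 ± 0.836 in FS, so the more abundant chain was Col11a1 in every ES and EpiSC_AF library and Col11a2 in every EpiSC_AFX library. Col1a1 to Col1a2 was 0.187 ± 0.0647 in FS, 0.274 ± 0.161 in EpiSC_AFX and 0.341 ± 0.0862 in EpiSC_AF, below 1 in each of these libraries, while the type I protein holds more alpha 1 than alpha 2 chains. No such ratio was taken in ES, where a library had at most 3 counts of a chain.

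**Figure D5:**
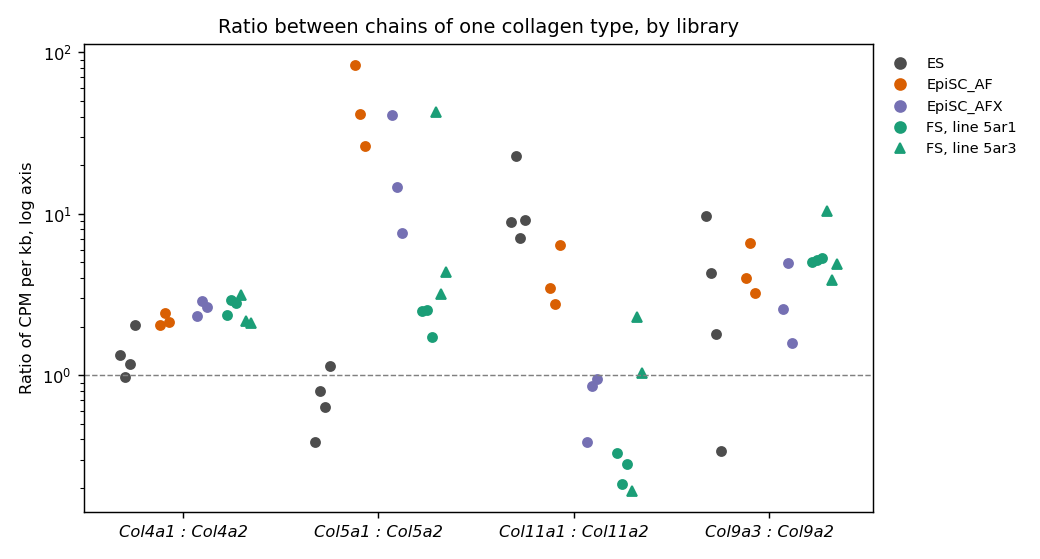
Ratio of CPM per kb (log axis) between chains of types IV, V, XI and IX in each library, with a dashed line at equal levels (triangles, FS line 5ar3). Col4a1 to Col4a2 stays between 2.05 and 3.11 outside ES, while Col5a1 to Col5a2 runs from 0.382 in an ES library to 83.2 in an EpiSC_AF library.

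Genes that make, fold, process, cross-link, bind or degrade collagen, or inhibit its degradation, were followed in a list of 58. Of these, 57 were in the table and 48 tested. Against ES, 30 were called higher and 12 lower in FS, 30 and 11 in EpiSC_AF, and 29 and 10 in EpiSC_AFX, beside 32.9% and 29.9%, 29.7% and 27%, and 28.5% and 26.2% of all genes. Between FS and EpiSC_AFX 2 were higher and 1 lower, beside 2.89% and 2.1% of all genes, and between FS and EpiSC_AF 4 were higher and 9 lower, beside 7.84% and 8.81%. The median log2 fold change in FS against ES was 0.59 for the 14 hydroxylation and glycosylation genes tested. It was 0.69 for the 7 of folding and export, 1.44 for the 8 of propeptide processing and 5.80 for the 6 of cross-linking. The 6 receptors had 2.69 and the 7 genes of degradation and its inhibitors 4.87. Over all genes the median was 0.04.

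Cross-linking genes were all called higher in FS than in ES (6 of 6). Pxdn, the peroxidase that makes the sulfilimine bond of type IV collagen, was at 126 ± 17.7 CPM in FS, 103 ± 2.61 CPM in EpiSC_AFX, 101 ± 16.3 CPM in EpiSC_AF and 0.856 ± 0.326 CPM in ES, a log2 fold change of 7.23 ± 0.23 in FS (adjusted p = 2.22e-13). Loxl2, a lysyl oxidase that acts on type IV collagen, was at 70.4 ± 33.4, 66.4 ± 19.5, 96.1 ± 21.8 and 0.376 ± 0.176 CPM in the same order (7.49 ± 0.49, adjusted p = 6.82e-10). Neither was called between FS and an EpiSC group.

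In the hydroxylation list 7 of 14 were called higher and 4 lower in FS than in ES, the latter near the share of all genes called lower (29.9%). The prolyl 4-hydroxylase subunits P4ha2 (20.2 ± 6.5 CPM in FS and 1.46 ± 0.497 CPM in ES, log2 fold change 3.81 ± 0.31, adjusted p = 1.19e-08) and P4ha1 (148 ± 51.1 and 30.4 ± 3.34 CPM, 2.29 ± 0.23, adjusted p = 1.88e-07) were higher. Crtap, a partner of prolyl 3-hydroxylase, was lower (8.01 ± 3.22 and 74.2 ± 5.64 CPM, -3.21 ± 0.23, adjusted p = 2.45e-09). Among chaperones and export factors, 4 of 7 were higher and 3 lower. Serpinh1, the collagen chaperone HSP47, was at 176 ± 30 CPM in FS and 25.2 ± 16.1 CPM in ES (2.82 ± 0.29, adjusted p = 2.58e-07), Fkbp10, another chaperone, at 34.5 ± 5.31 and 1.78 ± 0.462 CPM (4.26 ± 0.20, adjusted p = 1.46e-11), and Sec24d, a coat protein of procollagen export, at 6.24 ± 2.1 and 38.5 ± 6.58 CPM (-2.62 ± 0.22, adjusted p = 1.46e-08).

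Pcolce, an enhancer of propeptide removal, was at 8.47 ± 3.35 CPM in FS and 136 ± 16.8 CPM in ES (log2 fold change -4.00 ± 0.28, adjusted p = 1.79e-09), in a list with 4 of 8 called higher and 3 lower. Of the 6 receptors tested, 4 were higher and 1 lower. Ddr1, the epithelial collagen receptor kinase, was at 84.9 ± 26.4 CPM in FS and 4.35 ± 1.71 CPM in ES (4.27 ± 0.30, adjusted p = 1.79e-09), and its relative Ddr2, which binds fibrillar collagens, at 0.0912 ± 0.133 and 13 ± 6.48 CPM (-7.15 ± 0.72, adjusted p = 1.56e-07). Of the 7 genes of degradation and its inhibitors tested, 5 were higher and 1 lower. Timp3, an inhibitor, was among those called. Mrc2, which takes up collagen fragments, was at 25.3 ± 4.6 CPM in FS and 0.125 ± 0.116 CPM in ES (7.77 ± 0.36, adjusted p = 1.16e-11). Mmp2, a gelatinase, was at 31.3 ± 9.12 and 0.711 ± 0.349 CPM (5.50 ± 0.35, adjusted p = 5.72e-10).

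Between FS and EpiSC_AF, Mmp2 was higher in FS (4.67 ± 1.75 CPM in EpiSC_AF, log2 fold change 2.74 ± 0.32, adjusted p = 2.18e-05), and Mmp14, a membrane-bound collagenase, was lower (12.9 ± 3.06 CPM in FS and 32.9 ± 6.32 CPM in EpiSC_AF, -1.35 ± 0.20, adjusted p = 0.000226). P4ha2 (-1.12 ± 0.26, adjusted p = 0.00651), Sec24d (-1.48 ± 0.23, adjusted p = 0.000295), Bmp1, the procollagen C-proteinase (-0.88 ± 0.24, adjusted p = 0.019), and the integrin subunit Itgb1 (-0.85 ± 0.23, adjusted p = 0.0183) were also lower in FS.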

How the data were processed

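The deposited file holds raw counts per gene. Per the submitters' processing notes, reads were handled with Trim Galore, TopHat2 2.1.0 and featureCounts 1.5.0 on mm10. The annotation release and strand setting are not given in the sources used here, so overlapping genes are uncertain. Per the labels' protocols, RNA came from Trizol and PureLink columns, and libraries from a directional NEXTflex kit. The 6 columns of no labelled sample were not used, and 2003 of 34042 rows were 0 in all 16 libraries.

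Counts were fitted with edgeR 4.0.16 in R 4.3.3 (filterByExpr by group, TMM, robust quasi-likelihood, 1 mean per condition, all 16 libraries). The lines 5ar1 and 5ar3 were compared with 1 mean per line. Every sentence that prints an adjusted p uses this edgeR test with Benjamini-Hochberg adjustment over 18555 genes, unless another setting is named. Where no library of a group exceeded 3 counts, folds are lower bounds. Floors cover counting error only. Levels per kb use the longest coding transcript in GENCODE release 21 (GRCm38), where all 44 members were found.

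Members with a mean of at least 10 CPM in a condition were given by library, those of at least 1 CPM by group means, and the rest by counts and ranges. Of the pathway lists, up to 3 called genes per comparison with at least 10 CPM in the higher group were eligible to be named. The members, lists and tests were chosen with earlier results of these data known. Alternatives were DESeq2 1.42.0 size factors, total counts, no filter on low counts, a floor of 1 CPM on the mean, the DESeq2 Wald test, only the groups compared, 1 mean per line, single FS lines, leaving out each library, and counting Col15a1 and Col18a1 with type IV. The labels give neither numbers that pair libraries across groups nor a batch.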

Additional observations from a re-analysis of the deposited data

Results flagged for a closer look

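The genes given by library and the 3 class sums were examined in FS and ES, 28 groups of values in all. Groups of 3 libraries, as in both EpiSC conditions, were not examined. In 1 group the gap between an end library and its neighbour, as a share of the range, passed Dixon's critical value, which is higher for the 4 ES than for the 6 FS libraries. Chance gives about 1 in 20. Col18a1 in the 5ar1 p10 library of FS was at 231 CPM, while the other 5 FS libraries lay between 161 and 186 CPM, a gap of 0.647 of the whole range. Without this library the log2 fold change of Col18a1 was 0.49 (adjusted p = 0.071) against EpiSC_AFX and 1.12 (adjusted p = 0.000162) against EpiSC_AF, where the alternatives ran from 0.0129 to 0.22 and from 1.29e-10 to 0.00133.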

How the results depend on the processing

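No call of a collagen gene changed direction in any alternative. Of 113 calls over the 7 comparisons, 27 were lost in at least 1 alternative. Against ES the number of collagen genes called moved little: 28 in FS (27 to 30 when single libraries were left out, 22 to 30 in the other alternatives), 26 in EpiSC_AF (25 to 28, and 22 to 28) and 29 in EpiSC_AFX (25 to 30, and 22 to 29). Between FS and EpiSC_AFX the 6 calls became 2 with only the groups compared, 3 with line 5ar1 alone, 11 with line 5ar3 alone and 2 to 6 with single libraries left out (2 without AFX6 p5, and 3 without 5ar1 p10, 5ar3 p4, 5ar3 p5, AF32 p13, AF32 p14, AFX6 p8 or E14IV-C p15). Between FS and EpiSC_AF the 13 calls became 8 to 15 with single libraries left out (8 without AF32 p13). Between the EpiSC groups the 6 calls became 11 with the DESeq2 Wald test, 11 with only the groups compared, 12 with 1 mean per line and 1 to 9 with single libraries left out (1 without AF32 p13, AFX6 p5 or AFX6 p8). Between the FS lines the 5 calls became 3 with total counts, 10 with the DESeq2 Wald test, 3 with only the groups compared and 2 to 8 with single libraries left out (2 without 5ar1 p12, 5ar1 p14 or 5ar3 p4, 3 without AF32 p15 or E14IV-C p13, p15 or p20, and 8 without AFX6 p12). The causes were not tested. Total counts in place of TMM moved the all-gene median log2 fold change from 0.04 to 0.40 for FS against ES, from 0.01 to 0.29 for EpiSC_AF and from 0.01 to 0.25 for EpiSC_AFX, and from 0.04 to 0.16 and 0.13 for FS against EpiSC_AFX and EpiSC_AF. The share of all calls that were higher went from 52.4% to 70.5%, 52.4% to 66.3%, 52% to 64.7% and 57.9% to 72.7% in the first 4. Collagen calls were then 26 higher and 3 lower, 24 and 3, 23 and 5, 4 and 1, and 5 and 6. Counting Col18a1 with the type IV genes gave 5 of 5 tested called higher than ES in each condition. Genes at a few counts, such as Col5a3, Col6a5 and Col25a1, are limited by depth.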

Other observations

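Several collagen genes lie side by side. On chromosome 1 Col4a4 and Col4a3 stand head to head, 71 bases apart, and held 3 and 5 counts over all 16 libraries. Col4a6 and Col4a5 stand head to head 1308 bases apart on the X chromosome and were both called higher than ES in all 3 conditions, as were Col4a1 and Col4a2. Col6a2 and Col6a1, on the same strand of chromosome 10 and 85.2 kb apart, were also called higher together. So was Col18a1, 326 kb from Col6a1. Col9a3 and Col20a1, on the same strand of chromosome 2 and 364.3 kb apart, differed. In FS against ES Col9a3 was called higher (log2 fold change 1.97) and Col20a1 lower (-2.22). Of the other neighbours, Col9a1 and Col19a1 (9.2 kb apart, tail to tail) had group means of at most 0.96 and 0.136 CPM. Col6a5 was above 1 CPM in the AFX6 p5 library alone, while its neighbours Col6a6 (27.9 kb away) and Col6a4 (28.8 kb away) held 8 and 75 counts over all 16 libraries. Col6a4 also had its highest value, 0.464 CPM, in AFX6 p5, and its highest group mean in EpiSC_AFX (0.346 ± 0.104 CPM, SD, n = 3, against 0.109 to 0.175 CPM in the others).

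Col25a1, a transmembrane collagen of neurons and muscle innervation, was under 1 CPM in every group mean and had at most 1 count in any ES library. It was called higher than ES in all 3 conditions, at least 2.3-fold in FS and 1.58-fold in EpiSC_AF. In EpiSC_AFX its mean of 0.15 ± 0.0752 CPM (SD, n = 3) did not exceed the level of 3 counts in an ES library, and the call was lost in 5 of 19 alternatives (edgeR adjusted p from 0.024 to 0.084).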
